A study of Mus musculus with 21 samples.

Results

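Lysosomal degradation in cultured mouse macrophages was examined through 29 genes matched by symbol in 2 expression tables of 50645 and 50644 genes. By function they comprised 4 membrane proteins (Lamp1, Lamp2, Scarb2 and the channel gene Mcoln1), 7 glycosidases (Hexa, Gla, Glb1, Gaa, Gusb, Neu1 and Man2b1) and 2 lipid hydrolases (Asah1 and Lipa). A further 3 encode activators and lipid carriers (Npc2, Psap and Grn), 2 encode transcription factors (Tfeb and Tfe3) and 11 encode subunits of the vacuolar proton pump. The genes were chosen by name, and no threshold on their values was used.

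The cells were macrophages grown from bone marrow of C57Bl6/J mice in RPMI-1640 medium with 10% FCS and 30% supernatant of L929 cells, which secrete the growth factor M-CSF. There were 7 groups of 3 RNA-seq libraries from donor mice labelled as 24 weeks old that received chow or Western diet for 24 weeks. The fatty acid table (12 libraries) held 4 groups from chow-fed mice: untreated cells, cells given LPS at 100 ng/ml for 24 h from day 7, cells given 10 mM fatty acid (palmitic to oleic acid 1:3) in the first 4 days and LPS later, and cells given fatty acid together with 200 nM TAK242 and LPS later. The Western diet table (9 libraries) held untreated cells of chow-fed mice (replicates 4 to 6) and cells labelled Western diet without or with LPS. LPS is a bacterial cell wall lipid that activates the receptor TLR4, and TAK242 is an inhibitor of that receptor. Whether the replicates of a group came from separate mice is not given in the sources used here, so p-values measure the spread between these libraries only.

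Lysosomes are acidic organelles in which macrophages digest engulfed particles, lipoproteins and worn-out cell parts. The vacuolar proton pump acidifies them: its V1 sector splits ATP in the cytosol and turns a rotor that drives protons through the V0 sector in the membrane. TFEB and its relative TFE3 are transcription factors that enter the nucleus when starvation, lysosomal stress or microbial signals reach the cell, and bind the E-box CACGTG within a longer element called CLEAR in the promoters of many lysosomal genes. Their activity is set largely by phosphorylation and location, which RNA levels do not show.

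Promoter sequences were inspected because this shared element is the feature that ties many of these genes together, whatever their enzyme class. RefSeq promoters (build GRCm38.p6, 250 bases before to 50 bases after the transcription start site) were matched for 24 of the 29 genes. The E-box CACGTG, which reads the same on both strands, occurred in the promoters of 8 of these 24 genes (33.3%), against 8.09% of all 27025 genes in the table. The extended form TCACGTG, searched on both strands and always overlapping the shorter motif, occurred in the same 8 genes, against 4.29% of all genes. The palindromic CLEAR element was matched in 0 of the 24 and in 0.37% of all genes. These are letter matches in a fixed window and not measured binding. The shares over all genes include genes with little or no signal in these cells, and base composition was not matched. The stretches that hold the matches are printed 5′ to 3′ on the strand of the gene, with capitals marking the E-box and a T before or an A after it. For the membrane proteins they are Lamp1 at chr8:13159080-13159171 (plus strand) and Mcoln1 at chr8:3500428-3500499 (plus strand).
Lamp1: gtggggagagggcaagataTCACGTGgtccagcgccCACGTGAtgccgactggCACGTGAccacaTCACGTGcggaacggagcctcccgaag
Mcoln1: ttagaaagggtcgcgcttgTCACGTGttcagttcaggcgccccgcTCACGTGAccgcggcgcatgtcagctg
Lamp1 had 4 E-boxes, beginning 61, 45, 28 and 15 bases before the start site, and Mcoln1 had 2. Among glycosidase genes the stretches are Gla at chrX:134601174-134601252 (minus strand), Glb1 at chr9:114401010-114401055 (plus strand) and Gaa at chr11:119267803-119267848 (plus strand).
Gla: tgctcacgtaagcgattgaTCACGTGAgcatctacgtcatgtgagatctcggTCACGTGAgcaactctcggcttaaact
Glb1: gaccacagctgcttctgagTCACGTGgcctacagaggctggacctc
Gaa: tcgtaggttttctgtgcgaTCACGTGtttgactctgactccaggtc
In Gla both E-boxes are flanked by T and A, which makes the palindrome of 8 letters TCACGTGA, whereas in Glb1 and Gaa only the T is present. The proton pump genes with a match are Atp6v0d1 at chr8:105566042-105566087 (minus strand), Atp6v0b at chr4:117887322-117887385 (minus strand) and Atp6v1a at chr16:44139365-44139410 (minus strand).
Atp6v0d1: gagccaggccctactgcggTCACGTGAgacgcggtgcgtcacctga
Atp6v0b: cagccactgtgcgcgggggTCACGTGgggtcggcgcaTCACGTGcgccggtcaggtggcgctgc
Atp6v1a: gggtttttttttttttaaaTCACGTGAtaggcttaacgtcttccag
The single E-box of Atp6v0d1 spans the start site itself.

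**Figure D1:**
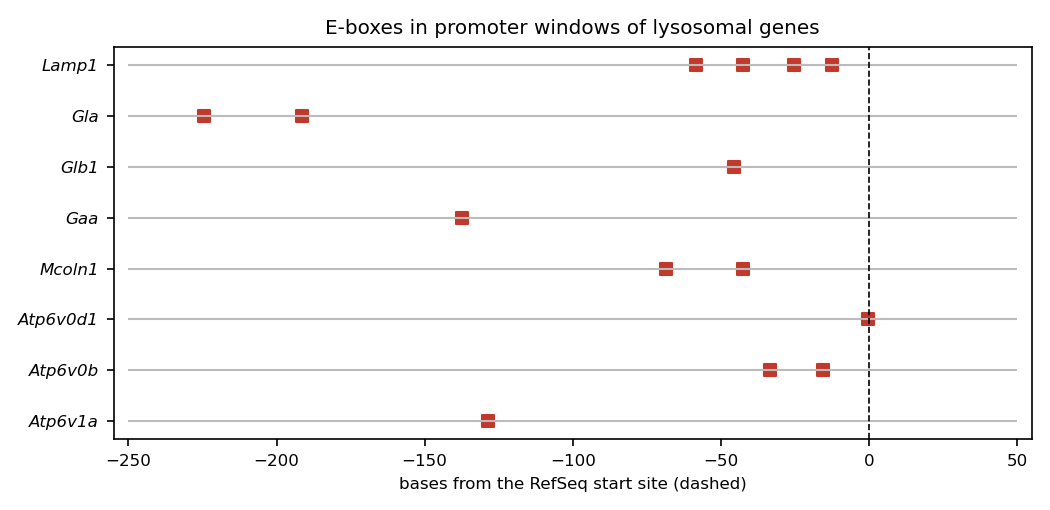
Positions of the E-box CACGTG (red squares) in the RefSeq promoter windows of the 8 genes that hold it, in bases from the start site (dashed line), from 250 before to 50 after. Lamp1 shows 4 E-boxes, and Mcoln1, Gla and Atp6v0b show 2 each.

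The values analysed are the deposited normalized values, whose unit the sources used here do not name. They resemble length-scaled values, but since this was not stated no level was compared between genes. Library sums lay between 321532 and 386023, 8803 to 10145 genes reached a value of 1 in a library, and read depth was not used here. Of 8 macrophage markers, 7 had a mean of at least 1 in every group, and markers of T and NK, B, mast and erythroid cells were below 1 in all groups. The chemokine gene Ccl5, which LPS induces strongly in macrophages, was used to check the LPS labels. Its values were below 1 in the 3 untreated libraries of the fatty acid table and between 3102 and 7141 in the other 9. In the Western diet table Ccl5 went against the label in 4 libraries: replicates 1 and 3 labelled without LPS were at 7846 and 10973, and replicates 1 and 2 labelled with LPS were at 0.463 and 10.5. Results from those libraries are therefore given by label only and again without them. Gene positions below are those of the deposited tables, which equal GENCODE annotation of GRCm38 in 27 of the 29 genes (not Npc2 and Atp6v1c1). Lamp1, Hexa, Grn, Atp6v0b and Atp6v1h share exon sequence with a gene on the other strand and Glb1 with Tmppe, and Atp6v0c has 2 named pseudogene copies. Reads of these partners cannot be told apart here, because the counting is not given in the sources used here.

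In chow macrophages after 24 h of LPS, 22 of the 29 lysosomal genes fell and 2 rose (Npc2 and Atp6v0b), by limma at an adjusted p under 0.05. Genes outside the list moved widely too: 47.9% of the 10476 genes tested fell and 13.8% rose. The median log2 change of the 29 was -0.69, against -0.31 for all genes tested. All 29 genes passed the filter of a value of at least 1 in 3 libraries, although Atp6v0d2 did so through 4 of the 12 libraries, 3 of them the untreated ones where it is high, so that it had to differ. Without Atp6v0d2 there were 21 falls and 2 rises among 28 genes, with a median of -0.64. The falls covered 4 of 4 membrane proteins, 5 of 7 glycosidases, both lipid hydrolases, all 5 V1 subunits and 3 of 5 V0 subunits.

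The untreated libraries stood apart from the rest in their median-ratio size factors, at 1.15 to 1.25 against 0.893 to 1.00 in the other 9. Their library sums, 353248 to 371221, lay inside the 321532 to 386023 of the other 9 libraries of the table. The most abundant gene made up 3.41% to 3.55% of the sum in untreated libraries and 7.44% to 13.95% in the others. Dividing by the size factors moved the median change of all genes from -0.31 to 0.01. After this scaling 13 of the 29 genes fell and 4 rose, against 26.9% and 27.2% of all genes, and the median of the 29 became -0.30. Without Atp6v0d2 these counts were 12 and 4 of 28. The 13 were all among the 22: Lamp1, Mcoln1, Hexa, Gla, Glb1, Gusb, Man2b1, Lipa, Atp6v0d1, Atp6v0d2, Atp6v0a1, Atp6v1a and Atp6v1c1. Scaling ended the calls of Lamp2, Scarb2, Psap, Asah1, Tfeb, Atp6v1b2, Atp6v1d, Atp6v1h and Atp6ap1, and turned the sign of Lamp2 (0.03), Scarb2 (0.11) and Atp6v1h (0.13). Which of the scales is right was not tested. Without the filter on low values Psap (adjusted p = 0.118), Tfeb (0.0636), Atp6v0b (0.0813) and Atp6v1h (0.0663) were no longer called by limma. In a fit of the 6 libraries alone the same 4 genes and Lamp2 (adjusted p = 0.0628) lost their calls, at 0.128 for Psap, 0.0821 for Tfeb, 0.0769 for Atp6v0b and 0.125 for Atp6v1h.

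**Figure D2:**
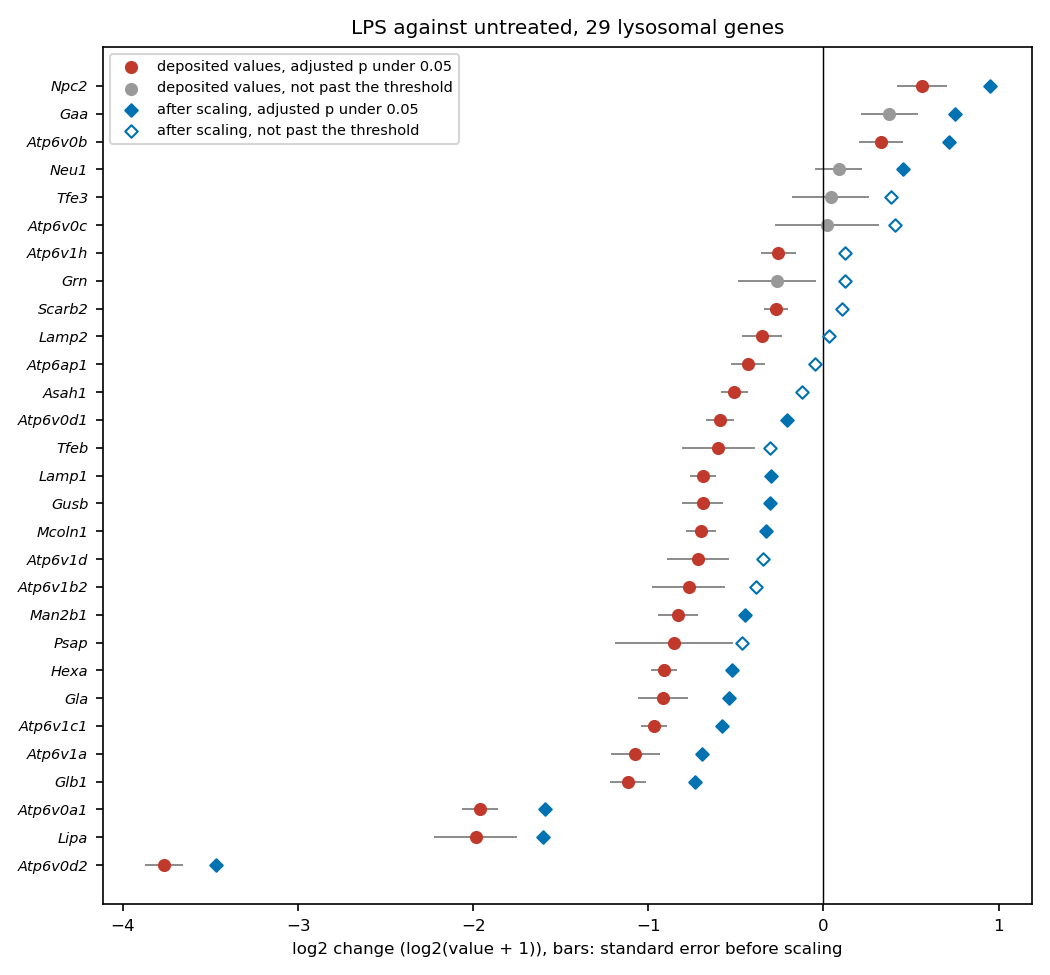
Log2 change of the 29 genes with LPS against untreated cells in the fatty acid table (x axis, log2(value + 1) scale), 3 libraries a group. Circles are the deposited values with their standard errors and diamonds the values after median-ratio scaling. Atp6v0d2, Lipa and Atp6v0a1 lie farthest left on both scales, and Npc2 farthest right.

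Lamp1 and Lamp2 encode the most abundant glycoproteins of the lysosomal membrane. Lamp1 (chromosome 8, 13159161 to 13175338) had values of 784, 774 and 766 in the untreated libraries and 452, 482 and 513 with LPS, a log2 change of -0.69 (SE 0.07, adjusted p = 1.43e-05). The groups did not overlap, and every LPS library lay below every untreated one. Lamp2 (chromosome X, 38401357 to 38456454) went from 170.2, 167 and 149 to 106, 131 and 145, also without overlap, a change of -0.35 (SE 0.11, adjusted p = 0.0193) that was lost without untreated replicate 1 or 2 or LPS replicate 1 (adjusted p up to 0.0603). Scarb2 (chromosome 5, 92441314 to 92506833), the receptor that carries glucocerebrosidase to lysosomes, was at 50.2, 48.5 and 48.3 and then 37.96, 41.1 and 42.2. The change was small but the groups were apart, at -0.27 (SE 0.07, adjusted p = 0.00497). Mcoln1 (chromosome 8, 3500457 to 3515232) encodes the calcium channel TRPML1, whose calcium release activates TFEB. It fell from 22.8, 28.5 and 25.5 to 15.6, 15.8 and 14.6, a change of -0.70 (SE 0.08, adjusted p = 3.03e-05), with the LPS libraries close together below all untreated ones.

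Among the glycosidases, which strip sugars from glycolipids and glycoproteins, Glb1 changed most. This gene for lysosomal beta-galactosidase (chromosome 9, 114401076 to 114474898) had 94.5, 92.6 and 91.7 in untreated cells and 35.6, 44.3 and 48.1 with LPS, a log2 change of -1.12 (SE 0.10, adjusted p = 4.26e-06). The 3 untreated libraries lay within a narrow range, well above the LPS libraries. Gla, the alpha-galactosidase deficient in Fabry disease (chromosome X, 134588149 to 134601125), fell from 44.8, 42.9 and 39.4 to 17.6, 21.7 and 27.7, a change of -0.92 (SE 0.14, adjusted p = 0.000221). Hexa, the alpha subunit of hexosaminidase (chromosome 9, 59539540 to 59565109), fell from 638, 667 and 680.4 to 332, 354 and 371, a change of -0.91 (SE 0.07, adjusted p = 1.49e-06). Neither gene's groups overlapped. Man2b1, the lysosomal alpha-mannosidase (chromosome 8, 85083270 to 85098282), and Gusb, beta-glucuronidase (chromosome 5, 129989011 to 130003049), fell by less, at -0.83 and -0.69. Gusb was at 225, 265 and 251 and then 178, 151 and 132. The 2 glycosidase genes that did not pass the test were Gaa, the enzyme that breaks down glycogen in lysosomes (chromosome 11, 119267887 to 119285454), and Neu1, the sialidase (chromosome 17, 34931253 to 34935953). Gaa was at 20.8, 29.8 and 25.7 in untreated and 41.8, 30.7 and 27.9 in LPS libraries, with overlap, a change of 0.38 (SE 0.16, adjusted p = 0.0657). Neu1 overlapped more fully, at 18.3, 22.8 and 19.8 against 23.6, 23.04 and 18.4, with 0.09 (SE 0.13, adjusted p = 0.588). After scaling both passed the test as higher, at 0.75 for Gaa and 0.46 for Neu1.

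Of the lipid-handling genes, Lipa fell most. It encodes lysosomal acid lipase, which frees cholesterol and fatty acids from the lipoproteins that macrophages take up (chromosome 19, 34492318 to 34527474). Its values were 331, 374 and 355 in untreated libraries and 147, 70.7 and 66.2 with LPS, so that the untreated mean was 3.74 times the LPS mean, a log2 change of -1.99 (SE 0.24, adjusted p = 2.72e-05). LPS replicate 1 stood above the other LPS libraries and still under every untreated library. Asah1, acid ceramidase (chromosome 8, 41340197 to 41374773), went from 168, 174 and 172 to 109, 119.9 and 132, without overlap, a change of -0.51 (SE 0.08, adjusted p = 0.000187). Npc2 (chromosome 12, 84754560 to 84773112), a small cholesterol carrier inside the lysosome, went the other way. It rose from 151, 135 and 139 to 165, 222 and 251, a change of 0.57 (SE 0.14, adjusted p = 0.00518), each LPS library being above each untreated one. Psap (chromosome 10, 60277627 to 60302597) encodes prosaposin, the precursor of the saposins that present lipids to their hydrolases, and its untreated libraries disagreed at 2816, 3397 and 1054. Against 1060.2, 1165 and 1381 with LPS the groups overlapped, and the change of -0.85 (SE 0.34, adjusted p = 0.0472) was lost when any library but untreated replicate 3 was left out (adjusted p up to 0.192). Grn, the gene of progranulin (chromosome 11, 102430315 to 102437048), a lysosomal and secreted protein, showed no call at 802, 1187 and 1059 against 572, 916 and 1107, a change of -0.26 (SE 0.22, adjusted p = 0.325).

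Of the transcription factor genes Tfeb was called and Tfe3 was not. Tfeb (chromosome 17, 47737030 to 47792419) was at 2.81, 4.59 and 5.32 in untreated libraries and 1.54, 2.74 and 3.09 with LPS, with overlap. The change was -0.60 (SE 0.21, adjusted p = 0.0257), and it was lost without untreated replicate 2 or 3 or LPS replicate 1 (adjusted p up to 0.103). Tfe3 (chromosome X, 7762560 to 7775202) was at 7.17, 9.69 and 9.40 and 8.87, 8.84 and 9.18, a change of 0.04 (SE 0.22, adjusted p = 0.886) that missed the threshold.

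The proton pump genes moved in both directions. Atp6v0d2 (chromosome 4, 19876841 to 19922605), an isoform of the V0 subunit d known from osteoclasts and from macrophages, was high only in the untreated cells of this table. Its values were 18.7, 18.9 and 24.4 in untreated libraries and 0.692, 0.580 and 0.473 with LPS, so that the untreated mean was 35.5 times the LPS mean. The log2 change was -3.77 (SE 0.11), understated at such low values by the added 1. As the filter kept this gene through its untreated libraries, the adjusted p to read is that of the fit without a filter, which was 1.90e-08. Its partner isoform Atp6v0d1 (chromosome 8, 105524465 to 105566047), which is made in most tissues, fell far less, from 113, 115 and 108 to 77.98, 75.4 and 68.8, a change of -0.59 (SE 0.08, adjusted p = 7.21e-05). Neither gene's groups overlapped. Atp6v0a1 (chromosome 11, 101009452 to 101063719), an isoform of the V0 subunit that forms the proton path, fell from 44.6, 58.3 and 54.1 to 12.3, 12.7 and 12.9, a change of -1.96 (SE 0.10, adjusted p = 4.00e-08), and the LPS libraries were nearly equal. The genes of the proton-binding rotor ring did not follow. Atp6v0b (chromosome 4, 117884326 to 117887333) was at 309, 290.5 and 274 and rose to 437, 348 and 321, without overlap. That change of 0.33 (SE 0.13, adjusted p = 0.0423) was lost without untreated replicate 2 or 3 or LPS replicate 1 or 2 (adjusted p up to 0.139). Atp6v0c (chromosome 17, 24163866 to 24169702) was at 329.8, 286 and 348 against a wide 321, 450.4 and 237, with 0.02 (SE 0.30, adjusted p = 0.957).

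In the V1 sector every one of the 5 subunit genes among the 29 fell, while Atp6v1e1 of the wider list, given below, rose. Atp6v1a (chromosome 16, 44085402 to 44139705), the catalytic subunit that splits ATP, went from 127, 125 and 153 to 67.7, 73.5 and 51.2, a change of -1.07 (SE 0.14, adjusted p = 5.21e-05). Atp6v1c1 (chromosome 15, 38661904 to 38692443), a stalk subunit, went from 164, 163 and 161 to 90.6, 76.5 and 82.2, a change of -0.97 (SE 0.07, adjusted p = 8.91e-07). The groups of both genes were far apart. Atp6v1b2 (chromosome 8, 69088646 to 69113711), which forms the head of V1 with the catalytic subunit, fell by 0.77 on the log2 scale and Atp6v1d (chromosome 12, 78840725 to 78861638), part of the central shaft, fell by 0.72. Atp6v1h (chromosome 1, 5070018 to 5162529), which couples V1 to V0, fell by 0.26, and that call was lost without untreated replicate 1 or 3 or LPS replicate 2 or 3 (adjusted p up to 0.161). The accessory subunit gene Atp6ap1 (chromosome X, 74297097 to 74304721) fell by 0.43. Over the 29 genes, 18 falls (Atp6v0d2 among them) and the rise of Npc2 were called without each of the 6 libraries in turn, against 40.2% and 11% of all genes.

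Other genes of the lysosome were read from lists drawn up beside the 29. Their counts are to be read against the 47.9% of all genes that fell and the 13.8% that rose. Of 27 further hydrolases and activators 19 fell and 3 rose with LPS, and of 21 further membrane proteins 12 fell and 4 rose. Of 7 further pump subunits with enough signal 3 fell and 2 rose, of 6 genes that deliver enzymes to the lysosome 5 fell and 0 rose, and of 16 genes that control TFEB and TFE3 12 fell and 0 rose. After scaling 26.9% of all genes fell and 27.2% rose. On the list of hydrolases and activators 17 then fell and 7 rose, and 6 membrane proteins fell and 7 rose. The pump subunits then gave 2 falls and 3 rises, the delivery genes 1 and 1 and the control genes 6 and 2. Of the genes counted, the control gene Rragd passed the filter through its 3 untreated libraries alone, where it is high, so that it had to differ. The hydrolase gene Hyal1 passed through 5 libraries, 3 of them untreated, and the counts include both genes. Acp5 and Hgsnat were 2 of the 3 genes on the list of hydrolases and activators that rose. Acp5, an acid phosphatase also used as an osteoclast marker, was at 1.52, 1.04 and 1.17 untreated and 111, 95.1 and 73.5 with LPS, a log2 change of 5.38 (SE 0.15, adjusted p = 6.16e-10). Hgsnat, which acetylates heparan sulfate in the lysosomal membrane, rose from 27.6, 28.5 and 27.02 to 108, 109 and 110.2, a change of 1.94 (SE 0.07, adjusted p = 2.30e-09). Galc, the galactosylceramidase deficient in Krabbe disease, fell from 31.8, 36.4 and 35.8 to 6.42, 7.15 and 7.48, a change of -2.15 (SE 0.09, adjusted p = 6.35e-09), and Manba, beta-mannosidase, by 1.20 on the log2 scale. None of these genes' groups overlapped.

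Exporters and a cholesterol transporter were among the 12 membrane proteins that fell. Ctns, the cystine exporter, went from 16.3, 14.4 and 14.99 to 3.13, 3.95 and 4.29, a change of -1.77 (SE 0.11, adjusted p = 2.07e-07). The sialic acid exporter Slc17a5 changed by -1.63 and the cholesterol transporter Npc1, which takes cholesterol from Npc2, by -1.28. Npc1 was at 62.7, 82.4 and 70.3 and then 28.8, 27.8 and 29.6, so that this pair moved in opposite directions. Cd68, a glycoprotein counted here also as a macrophage marker, fell by 1.13 on the log2 scale, from 1221, 1196 and 1158 to 511, 546 and 576. Among further pump subunits Atp6ap2 (-0.63) and Atp6v1g1 (-0.90) fell, whereas Atp6v0a2 (0.57) and Atp6v1e1 (0.71) rose. Atp6v0a2 is an isoform of the same subunit as Atp6v0a1, and its values were 8.004, 8.90 and 8.69 untreated and 12.2, 13.97 and 13.3 with LPS.

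Genes that sort enzymes to the lysosome included Gnptg (-1.09), Gnptab (-0.37) and Nagpa (-0.39), which build the mannose 6-phosphate tag, and Igf2r (-1.16), which binds it. All of these fell, and only Gnptg also fell after scaling. Of the genes that tether TFEB to the lysosome, Rragd fell from 2.96, 2.83 and 2.77 to 0.316, 0.164 and 0.287, a change of -1.62. Its adjusted p in the fit without a filter was 7.26e-08. Rragc (-1.20), Flcn (-1.31) and Lamtor3 (-1.09), which act in the same nutrient sensing machinery on the lysosomal surface, fell as well. The calls of Rragc, Flcn and Lamtor3 held after scaling.

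Markers of other cells moved with LPS too. Summed over 8 stromal markers the level was 4.51 to 9.47 untreated and 14.9 to 34.1 with LPS, and 4 of the 4 markers tested rose. Summed over 8 osteoclast markers it was 7.23 to 7.94 untreated and 81.3 to 143 with LPS, of which Acp5 made up most. Ocstamp was at 0 in all LPS libraries, and of the 4 osteoclast markers tested Acp5 and Mmp9 rose and Nfatc1 fell. Neutrophil markers summed to 67.1 to 73.9 untreated and 51.5 to 145 with LPS. The macrophage markers summed to 9659.6 to 10781 untreated and 10262 to 10501 with LPS. Of the 7 macrophage markers tested 4 rose (Adgre1, Csf1r, Fcgr1 and Itgam) and 1 fell (Cd68). The part of these cells in the lysosomal results was not tested, and in bulk RNA fewer cells of a type and less RNA per cell cannot be told apart.

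**Figure D3:**
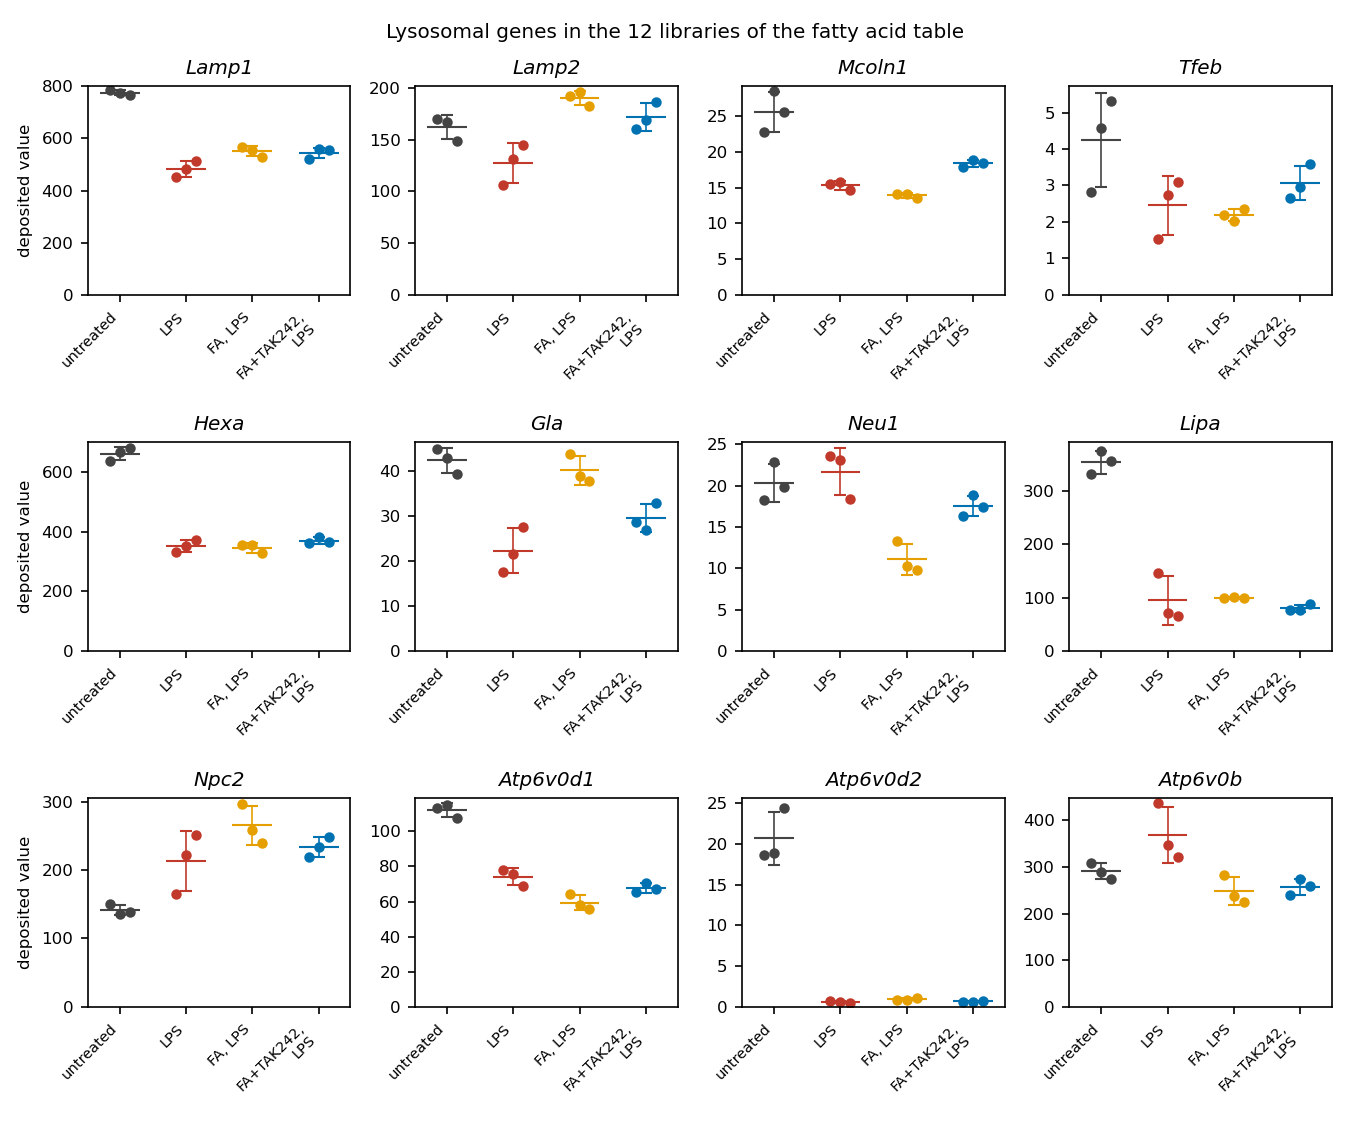
Deposited values of 12 lysosomal genes in the 4 groups of the fatty acid table (FA, fatty acid), with each library as a point and the mean and SD as lines, n = 3. Atp6v0d2 and Lipa are high in the untreated libraries alone, Gla lies near its untreated values with fatty acid before LPS, and Neu1 is lowest there.

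The next comparison asks how cells that spent their first 4 days in palmitic and oleic acid differed, once stimulated, from cells given LPS alone. Of the 29 genes 5 were higher after fatty acid (Gla, Lamp2, Asah1, Atp6v0d2 and Scarb2) and 6 were lower (Neu1, Atp6v0c, Gaa, Gusb, Atp6v0b and Atp6v0d1), by limma. Of all genes tested 21.8% were higher and 15.3% lower. The median change of the 29 was 0.17, against 0.06 for all genes. After scaling the calls for Gla, Lamp2 and Asah1 stood among the higher ones and all 6 lower calls stood, joined by Atp6ap1, while Scarb2 (adjusted p = 0.0569) and Atp6v0d2 were lost and 19.9% of all genes were higher and 19.9% lower. The LPS libraries also enter the comparison above, so that a high or low LPS value moves both results in opposite senses.

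Gla had values of 43.8, 38.9 and 37.8 after fatty acid, against 17.6, 21.7 and 27.7 with LPS alone, a log2 change of 0.84 (SE 0.14, adjusted p = 0.00188). All fatty acid libraries lay above all LPS libraries and within or next to the untreated range of 44.8, 42.9 and 39.4. Lamp2 was at 192, 196 and 183 and changed by 0.59 (SE 0.11, adjusted p = 0.00328), all 3 libraries being above those with LPS alone and above the untreated ones. Asah1 was at 158, 165 and 157, a change of 0.42 (SE 0.08, adjusted p = 0.00285), again without overlap with LPS alone. Scarb2, at 49.9, 46.2 and 46.7, changed by 0.23 (SE 0.07, adjusted p = 0.0218), which was lost without LPS replicate 1 or fatty acid replicate 1 (adjusted p up to 0.074) and in a fit of the 6 libraries alone (0.0851). Atp6v0d2 stayed low in both groups, at 0.888, 0.871 and 1.08 after fatty acid. Its change of 0.30 (SE 0.11, adjusted p = 0.0485) was lost without any library but LPS replicate 1 (adjusted p up to 0.146), after scaling (0.0709) and without the filter (0.0923), and lies near the low end of the values kept.

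The lower genes were glycosidases and V0 subunits. Neu1 was at 13.2, 10.2 and 9.79 after fatty acid against 23.6, 23.04 and 18.4 with LPS alone, a change of -0.91 (SE 0.13, adjusted p = 0.000958), and these were the lowest Neu1 values of the table. Gaa was at 19.97, 18.7 and 21.3 (-0.70, SE 0.16, adjusted p = 0.00779) and Gusb at 96.2, 95.2 and 90.6 (-0.69, SE 0.12, adjusted p = 0.00178), in each case below all LPS libraries. Atp6v0b was at 284, 238 and 225, a change of -0.56 (SE 0.13, adjusted p = 0.00662). Atp6v0d1 was at 64.1, 58.3 and 55.7, a change of -0.32 (SE 0.08, adjusted p = 0.011). Both lay below all libraries with LPS alone, and the call of Atp6v0d1 was lost in a fit of the 6 libraries alone (adjusted p = 0.0536). Atp6v0c was at 190.2, 155 and 203, below the wide LPS values, and its change of -0.84 (SE 0.30, adjusted p = 0.0468) was lost without any library but LPS replicate 3 (adjusted p up to 0.159) and without the filter (0.119).

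The other 18 genes were not called, and those of the V1 sector are given by their range of changes. Lamp1 was at 567, 557 and 529.7 after fatty acid against 452, 482 and 513 with LPS alone, without overlap and all below untreated, with 0.20 (SE 0.07, adjusted p = 0.0617). Lipa stayed at 98.4, 101 and 98.6, inside the range of 147, 70.7 and 66.2 with LPS alone, with 0.17 (SE 0.24, adjusted p = 0.597). Mcoln1 was at 14.1, 14.2 and 13.5 against 15.6, 15.8 and 14.6 (-0.13, SE 0.08, adjusted p = 0.247). Both membrane protein genes stayed below their untreated values, and so did Lipa. Of the transcription factor genes Tfe3 alone lay apart from LPS alone. Tfeb was at 2.19, 2.04 and 2.37 against 1.54, 2.74 and 3.09 (-0.08, SE 0.21, adjusted p = 0.781). Tfe3 was at 13.4, 14.3 and 10.4, above all LPS libraries at 8.87, 8.84 and 9.18, with 0.45 (SE 0.22, adjusted p = 0.132), and it was called higher in a fit of the 6 libraries alone (adjusted p = 0.0465). Of the carriers and activators Psap alone stood apart from LPS alone. It was at 2129, 2005 and 1953, all above the 1060.2, 1165 and 1381 of LPS alone, with 0.76 (SE 0.34, adjusted p = 0.0996). Grn was at 1377, 1258 and 1093 against 572, 916 and 1107, with overlap and 0.57 (SE 0.22, adjusted p = 0.068). Npc2, at 297, 258 and 240.1 against 165, 222 and 251, also overlapped, with 0.33 (SE 0.14, adjusted p = 0.0896).

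Of the glycosidase genes without a call, Hexa was at 355, 356 and 327, overlapping its values with LPS alone (-0.02, SE 0.07, adjusted p = 0.818). Glb1 was at 53.2, 53.1 and 46.97, overlapping its values with LPS alone (0.26, SE 0.10, adjusted p = 0.0683). Man2b1 was at 137, 123 and 123 against 109, 109 and 109, without overlap, with 0.23 (SE 0.11, adjusted p = 0.138). None of the 3 enzymes passed the test. Of the pump genes outside V1, Atp6v0a1 was at 15.3, 14.7 and 13.3, all above its values with LPS alone (0.18, SE 0.10, adjusted p = 0.175), and Atp6ap1 was at 121, 104 and 100.4 against 123, 129 and 126, without overlap, with -0.21 (SE 0.10, adjusted p = 0.102). Of the V1 genes, which had all fallen with LPS, none was called here, and their log2 changes ran from -0.10 (Atp6v1d) to 0.42 (Atp6v1b2).

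**Figure D4:**
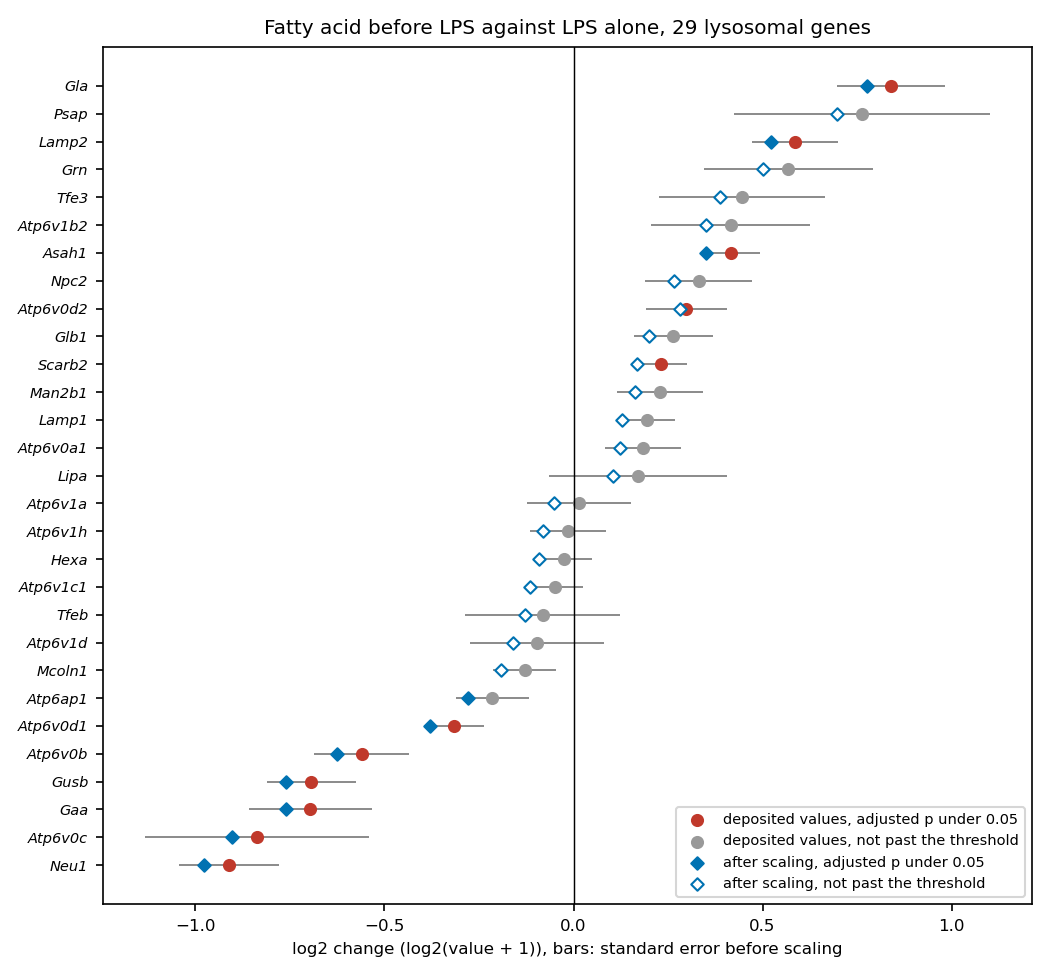
Log2 change of the 29 genes with fatty acid before LPS against LPS alone (x axis, log2(value + 1) scale), 3 libraries a group, drawn as in the plot of the LPS changes. Gla, Lamp2 and Asah1 are higher and Neu1, Atp6v0c, Gaa, Gusb, Atp6v0b and Atp6v0d1 lower on both scales.

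In the wider lists, read against the 21.8% of all genes that were higher and the 15.3% that were lower, 10 of 21 further membrane proteins were higher after fatty acid and 0 lower. Slc38a9, an amino acid sensor, was at 3.58, 3.62 and 3.56 against 1.60, 1.86 and 2.35 with LPS alone, a change of 0.65 (SE 0.10, adjusted p = 0.000959). Ctns (0.65), Slc17a5 (0.61) and the nucleoside transporter Slc29a3 (0.76) were higher as well. Of the 27 further hydrolases and activators 11 were higher and 4 lower. Pla2g15, the lysosomal phospholipase A2, was at 12.7, 13.5 and 12.97 against 3.32, 6.02 and 7.60, a change of 1.14 (SE 0.20, adjusted p = 0.00214). Galc (0.46) was higher, and Hgsnat (-0.76), which LPS had raised, was lower. Of the 7 further pump subunits 2 were lower, Atp6v1g1 (-0.63) and Atp6v1e1 (-0.59), and 0 higher. Of the 6 delivery genes the mannose 6-phosphate receptor gene M6pr was higher (0.35) and Sort1 lower (-1.24), although Sort1 ranged from 2.92 to 15.5 in the LPS libraries. Of the 16 control genes 8 were higher, with Fnip2 (0.92), the calcineurin subunit gene Ppp3r1 (0.38) and Lamtor3 (0.36) among them, and 2 were lower, one being Lamtor4 (-0.50). After scaling 19.9% of all genes were called in each direction. The membrane proteins again gave 10 higher and 0 lower, and the list of hydrolases and activators 11 and 5. The pump subunits then gave 0 and 3, the delivery genes 0 and 1, since the call of M6pr was lost, and the control genes 6 and 2. Marker lists moved here too: stromal markers summed to 5.44 to 7.41 after fatty acid (3 of 4 lower than with LPS alone), neutrophil markers to 31.3 to 34.4 (2 of 4 lower) and osteoclast markers to 54.3 to 60.1 (3 of 4 lower). The macrophage markers summed to 8726 to 9774, below the 10262 to 10501 of LPS alone, and all 7 tested were called, 5 higher (Adgre1, Cd68, Fcgr1, Itgam and Mertk) and 2 lower (Csf1r and Lyz2). The part of these markers in the result was not tested.

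Fatty acid with TAK242 was set against fatty acid alone, which here and below means fatty acid before LPS without TAK242. Both groups received LPS, and no group had fatty acid without LPS or TAK242 without fatty acid. Adding TAK242 left 2 of the 29 genes higher, Neu1 and Mcoln1, and 0 lower, against 3.01% and 1.68% of all genes. At an unadjusted p under 0.05 there were 7 of the 29, against 23.1% of all genes. Neu1 was at 16.3, 18.8 and 17.4 with TAK242, above the 13.2, 10.2 and 9.79 of fatty acid alone, a change of 0.63 (SE 0.13, adjusted p = 0.0315). Mcoln1 was at 17.8, 18.9 and 18.5, above all libraries of fatty acid alone, a change of 0.38 (SE 0.08, adjusted p = 0.0346). Leaving out any single library of the 6 ended the call of Mcoln1 (adjusted p up to 0.136), and leaving out any but fatty acid replicate 1 ended that of Neu1 (adjusted p up to 0.128), as did fitting without the filter (0.0646). Gaa, at 27.9, 35.5 and 30.998, lay above all fatty acid libraries with 0.62 (SE 0.16, adjusted p = 0.0557). Gla, at 28.6, 26.9 and 32.95, lay below them with -0.44 (SE 0.14, adjusted p = 0.107). Stromal markers summed to 14.5 to 17.3 with TAK242, against 5.44 to 7.41 with fatty acid alone, and 2 of the 4 tested were higher (Col1a1 and Col1a2). None of the 7 macrophage, 4 neutrophil and 4 osteoclast markers tested was called, and the part of the stromal markers in this result was not tested.

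With fatty acid and TAK242 before LPS, against LPS alone, 3 of the 29 genes were higher and 1 lower, against 4.05% and 1.84% of all genes. Atp6v0a1 was at 17.6, 17.3 and 19.4, above all LPS libraries, a change of 0.49 (SE 0.10, adjusted p = 0.0293). Lamp2 was at 160.1, 169 and 186 (0.44, SE 0.11, adjusted p = 0.0498) and Asah1 at 146, 145 and 154 (0.30, SE 0.08, adjusted p = 0.0493), both without overlap. Atp6v0b was lower at 240.4, 275 and 259, a change of -0.50 (SE 0.13, adjusted p = 0.0471). Each of these 4 calls was lost when any library but LPS replicate 3 was left out, with adjusted p up to 0.168 for Lamp2, 0.165 for Asah1, 0.118 for Atp6v0a1 and 0.141 for Atp6v0b. All 4 were also lost without the filter (adjusted p up to 0.104) and in a fit of the 6 libraries alone (up to 0.165), and scaling ended the calls of Lamp2 (0.0527) and Asah1 (0.0714). Lamp2 and Asah1 were also higher with fatty acid before LPS without TAK242, at 0.59 and 0.42, in a comparison that shares the LPS libraries. The genes named throughout had, with TAK242, values of 521, 558 and 554 for Lamp1, 2.66, 2.96 and 3.58 for Tfeb and 12.4, 6.39 and 12.8 for Tfe3. Lipa was at 75.8, 75.9 and 86.9, Grn at 934, 817 and 966, Atp6v0d1 at 65.2, 70.6 and 67.3 and Atp6v0d2 at 0.642, 0.636 and 0.740, and none of the 7 was called against fatty acid alone or against LPS alone.

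Cells given fatty acid before LPS were also set against untreated cells. Here 18 of the 29 genes fell and 1 rose, against 44.9% and 15.2% of all genes, with a median of -0.64 against -0.26 for all genes. Without Atp6v0d2, which the filter kept through its untreated libraries, 17 of 28 fell, with a median of -0.62. After scaling 15 fell and 6 rose, against 29.1% and 27.3%, and Tfeb, Atp6v0c and Atp6v1h were no longer lower. Atp6v0d2 differed by -3.47, with an adjusted p of 3.03e-08 in the fit without a filter. The largest falls among the other genes were in Lipa at -1.82 (SE 0.24, adjusted p = 5.48e-05), Atp6v0a1 at -1.78 (SE 0.10, adjusted p = 8.50e-08) and Gusb at -1.38 (SE 0.12, adjusted p = 2.02e-06). Atp6v1a changed by -1.06 and Atp6v1c1 by -1.01, from their untreated values to 61.9, 58.1 and 72.9 and to 82.1, 78.99 and 79.1. Npc2 rose by 0.90 (SE 0.14, adjusted p = 0.000248). Gla, Lamp2, Asah1 and Scarb2, which were higher than with LPS alone, were not called against untreated cells, with -0.08 (SE 0.14, adjusted p = 0.67) for Gla, 0.23 (SE 0.11, adjusted p = 0.0979) for Lamp2, -0.09 (SE 0.08, adjusted p = 0.319) for Asah1 and -0.04 (SE 0.07, adjusted p = 0.628) for Scarb2. After scaling Lamp2 (0.55), Scarb2 (0.27) and Asah1 (0.23) passed the test as higher than untreated. Over the 4 groups of the table the untreated mean of the deposited values was the highest for 21 of the 29 genes. The lowest mean was that of LPS alone for 12, of fatty acid before LPS for 11, and of fatty acid with TAK242 for 4. The order of these means was not counted over all genes or after scaling. Within each LPS-treated library of these groups, 20 to 24 of the 29 genes lay below every untreated library. Among all genes this share was 54.7% to 62.2%, so that much of the pattern was general. In this comparison osteoclast markers summed to 54.3 to 60.1 against 7.23 to 7.94 untreated. Of the 4 osteoclast markers tested only Acp5 was higher, and Ctsk and Nfatc1 were lower. Neutrophil markers summed to 31.3 to 34.4 against 67.1 to 73.9, and of the 4 tested only Mmp8 was called, as lower. Of the 7 macrophage markers tested 4 were higher and 2 lower, and the part of these markers in the result was not tested.

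Between libraries labelled Western diet without LPS and chow controls of the same table, 0 of the 29 genes were called in either direction, against 0.0678% of all genes higher and 0.165% lower. At an unadjusted p under 0.05 limma gave 3 of the 29 (Gla, Man2b1 and Npc2), against 27.3% of all genes. Macrophage markers summed to 5793 to 15382 with the Western diet label and to 10176 to 11993 in chow controls. Of the cell type markers tested only the neutrophil marker Ltf was called, as lower, and the part of these markers was not tested. The spread within the Western diet label was wide. Npc2 was at 407, 86.1 and 416 in replicates 1, 2 and 3 and at 96.8, 77.2 and 80.6 in chow controls. Replicates 1 and 3, those with high Ccl5, were far above the controls, and replicate 2 lay within them. Lipa showed the reverse, at 52.9, 183 and 43.2 against 177, 174 and 176, and in Gusb and Man2b1 replicates 1 and 3 were again the lowest, at 55.2, 174 and 46.6 and at 51.9, 152 and 54.8. Without replicate 2, which leaves the 2 libraries whose Ccl5 went against the label, 4 of the 29 were called higher and 5 lower than chow, against 12.1% and 44.4% of all genes. Without the 4 libraries whose Ccl5 went against the label, which leaves replicate 2 alone, 0 of the 29 were called in either direction, against 0.116% of all genes higher and 0.106% lower.

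By the LPS label within the Western diet, Gaa and Psap were higher with LPS and 0 genes were lower, against 0.678% and 0.281% of all genes. The median change of the 29 was 0.72, against 0.16 for all genes. Macrophage markers summed to 5793 to 15382 without and 9436 to 11619 with LPS by label. Neutrophil markers summed to 2.30 to 7.09 without and 22.1 to 31.2 with, and osteoclast markers to 6.90 to 20.4 and 5.06 to 60.7. Of the cell type markers tested only the neutrophil marker Ltf was called, as higher, and the part of these markers in the result was not tested. Psap was at 3994, 3934 and 2042 with LPS by label and 993, 667 and 1036 without, a change of 1.85 (SE 0.33, adjusted p = 0.0473). Gaa was at 46.5, 49.1 and 32.2 against 14.1, 16.2 and 13.2, a change of 1.47 (SE 0.20, adjusted p = 0.0201). The LPS-labelled libraries lay above the others without overlap for 14 of the 29 genes, against 7.72% of all genes. Both calls were lost without replicate 1 or 3 labelled without LPS or replicate 1 or 2 labelled with LPS, with adjusted p up to 0.122 for Gaa and 0.24 for Psap. A fit of the 6 libraries alone also ended both calls (adjusted p = 0.194 for Gaa and 0.292 for Psap), and scaling (0.0694) and fitting without the filter (0.121) ended that of Psap. Leaving out replicate 2 without LPS, a library whose Ccl5 matched its label, gave 14 of the 29 higher and 1 lower, against 29.8% and 9.72% of all genes. Leaving out replicate 3 with LPS, the other such library, gave 13 higher and 0 lower, against 5.04% and 2.19%. Leaving out the 4 libraries whose Ccl5 went against the label gave 7 genes higher and 4 lower, against 8.35% and 23.6% of all genes, with 1 library left in each Western diet group, which the fit takes to vary like the chow controls.

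The high values sat in the 2 LPS-labelled libraries with low Ccl5. Against chow controls the median log2 difference of the 29 genes was 0.85 in replicate 1 and 0.94 in replicate 2, where 27 and 26 of them lay above all 3 controls. Over all genes the medians in these libraries were -0.08 and -0.07, and 28.3% and 30.8% of genes lay above the controls. In replicate 3, whose Ccl5 was 6905, the median of the 29 was 0.15, with 16 above, against -0.34 and 20.8% over all genes. Lamp1 was at 871, 827 and 579.9 in these replicates and 409.8, 344 and 370.0 in chow controls. Hexa was at 824, 878 and 375 against 367, 323 and 357, Glb1 at 118, 119 and 55.8 against 46.1, 40.6 and 37.8 and Lipa at 331, 346 and 74.8. Replicate 3 lay near or below the controls for Hexa and Lipa. The factor genes were not higher there: Tfeb was at 4.84, 5.06 and 3.14, below the 5.65, 5.36 and 5.11 of the controls, and Tfe3 at 12.6, 14.1 and 11.3, overlapping 13.2, 17.998 and 14.4. For replicates 1, 2 and 3 with the label of Western diet and no LPS, the median differences from chow were -0.02, -0.05 and -0.16, while the medians of all genes were -0.50, 0.02 and -0.49. Mcoln1 was at 14.01, 15.4 and 13.7 without and 28.9, 29.2 and 16.7 with LPS by label, Atp6v0d1 at 55.7, 60.3 and 53.9 and 111, 124 and 63.2, and Grn at 858, 535 and 1323 and 976, 1012 and 973. Atp6v0d2, low in the chow controls of this table at 0.607, 0.383 and 0.489, reached 3.96, 7.22 and 0.886 with LPS by label and 0.348, 1.99 and 0.336 without. Among the libraries labelled Western diet the higher values were again those of libraries with low Ccl5. Atp6v0d2 passed the filter of this table through only 3 of the 9 libraries, those at 3.96, 7.22 and 1.99. The Western diet counts out of 29 include it.

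**Figure D5:**
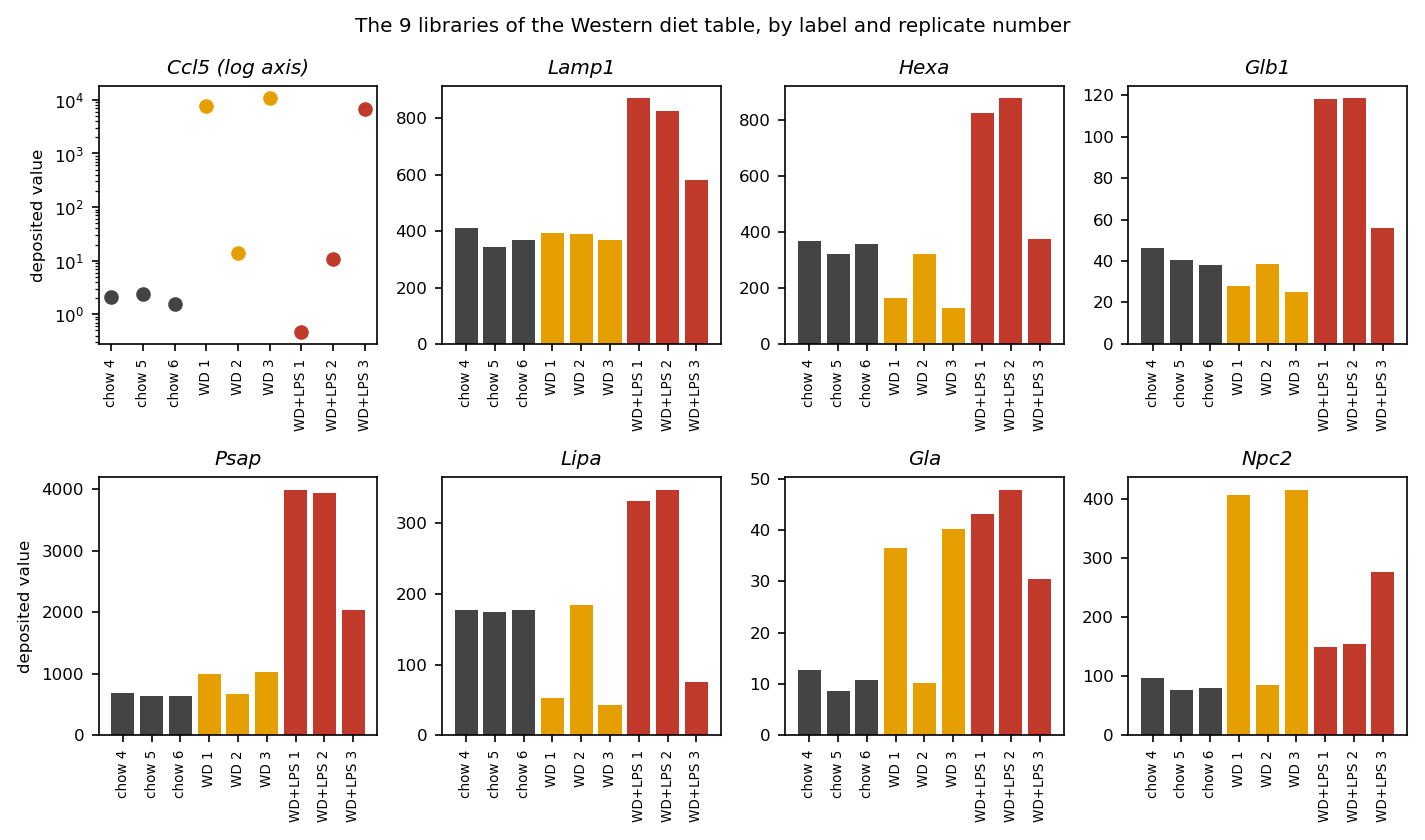
Deposited values of Ccl5 (log axis) and 7 lysosomal genes (linear axes from 0) in each of the 9 libraries of the Western diet table, named by label and replicate number (WD, Western diet). WD+LPS replicates 1 and 2 are high for Lamp1, Hexa, Glb1, Psap and Lipa and low for Ccl5, while Npc2 is highest in WD replicates 1 and 3.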

How the data were processed

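RNA of 21 libraries was sequenced by the authors. The tools HISAT2 2.0.5, Trim Galore 0.4.1, CASAVA 1.8.2 and FastQC 0.11.5 and the builds mm10 and mm9 are listed, without roles, per the submitters' processing notes. The deposited tables hold normalized expression values per gene, written with decimal commas, and the quantification and unit are not given in the sources used here. The depth behind each value was therefore not known, and no counting intervals were made. Rows whose values had slipped into annotation columns were dropped: 36 rows (17 gene IDs) of the table with fatty acid and 35 rows (18 gene IDs) of the other table, none of them from the 29 genes.

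Within each table a gene was kept if 3 or more libraries reached a value of 1 (10476 and 10331 genes). Using limma 3.58.1 in R 4.3.3 with a mean-variance trend, a model was fitted to log2(value + 1), all libraries of a table sharing the spread. Log2 changes are on this scale, which understates changes of low values. P-values were adjusted by Benjamini-Hochberg over all genes kept, with a threshold of 0.05. No fit crossed the tables, since it is unknown whether they share a normalization. The fit was tested on simulated data in which few genes changed, unlike the wide changes seen here, and nothing is drawn from it. Values in every library are given for the genes with up to 6 largest rises and 6 largest falls with LPS and after fatty acid, for called genes of the other comparisons of the fatty acid table, for 8 genes fixed by name, for Ccl5, and in part for up to 4 genes per wider list by smallest adjusted p. Values of other genes, in the Western diet table above all, were added after they had been seen. The 29 genes, the wider lists, the tests and the alternatives were chosen with earlier results of these data known.

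Alternatives were median-ratio scaling between libraries, a pseudocount of 0.1, no filter, a minimum of 5, the 6 libraries compared alone, leaving out each library, the replicate number as a block and, in the Western diet table, leaving out the 4 libraries whose Ccl5 went against the label. Promoter motifs were counted by letter match without a test. Python 3.11.15, pandas 2.3.3 and matplotlib 3.10.9 were used for tables and plots.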

Additional observations from a re-analysis of the deposited data

Results flagged for a closer look

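For 9 of the 29 genes every library labelled Western diet with LPS lay above every library labelled Western diet without LPS, while in chow cells every LPS library lay below every untreated one. This pattern was shown by 4.45% of the 10019 genes kept in both tables. The difference between the diets was not tested, because the values lie in separate tables. By label, the log2 changes in the Western diet libraries were 0.96 for Lamp1, 1.07 for Scarb2, 0.72 for Mcoln1, 1.76 for Hexa and 1.59 for Glb1. Among the pump genes they were 0.75 for Atp6v0d1, 0.74 for Atp6v1a, 0.45 for Atp6v1b2 and 0.77 for Atp6ap1. In chow cells the changes of the same genes were -0.69 for Lamp1, -0.27 for Scarb2, -0.70 for Mcoln1, -0.91 for Hexa, -1.12 for Glb1, -0.59 for Atp6v0d1, -1.07 for Atp6v1a, -0.77 for Atp6v1b2 and -0.43 for Atp6ap1. After median-ratio scaling the chow change was 0.11 for Scarb2, -0.39 for Atp6v1b2 and -0.05 for Atp6ap1, none of them called. Of the 6 Western diet libraries 4 had Ccl5 values that went against their LPS label, and without them 7 of the 29 genes were higher and 4 lower with LPS by label, against 8.35% and 23.6% of all genes, with 1 library in each Western diet group.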

How the results depend on the processing

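Counts of called genes out of 29 moved by more than 1.5 times in these cases. Median-ratio scaling changed the LPS comparison from 2 higher and 22 lower to 4 and 13, fatty acid before LPS from 5 to 3 higher, fatty acid with TAK242 against LPS from 3 higher and 1 lower to 1 and 2, and fatty acid before LPS against untreated from 1 to 6 higher. It reversed Lamp2 (0.0325), Scarb2 (0.11) and Atp6v1h (0.13) with LPS, and Atp6v1h (0.0454) for fatty acid before LPS against untreated. Without a filter 1 gene was higher with LPS, 1 with TAK242 against fatty acid alone and 1 with LPS by label in the Western diet, and 0 were called either way with fatty acid and TAK242 against LPS. With the 6 libraries compared alone 1 gene was higher with LPS, 3 were higher with fatty acid before LPS against untreated, 2 were lower with TAK242 against fatty acid alone, 0 were called either way with fatty acid and TAK242 against LPS, and 0 were higher with LPS by label in the Western diet. Without the 4 doubted libraries that last comparison gave 7 higher and 4 lower. A pseudocount of 0.1 and a minimum of 5 moved no count by that much.

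Leaving out 1 library at a time gave 1 to 3 higher with LPS and 3 to 8 higher with fatty acid before LPS. It gave 0 to 1 higher with TAK242 against fatty acid alone, and 0 to 4 higher and 0 to 2 lower with fatty acid and TAK242 against LPS. In the Western diet table it gave 0 to 4 higher and 0 to 5 lower against chow, and 0 to 14 higher and 0 to 1 lower by LPS label, the highest counts being those without a library whose Ccl5 matched its label.

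Replicate numbers were not taken to pair the libraries, since not every same-numbered pair had deviations correlated above 0.1. This was so for 1 of 18 pairs in the fatty acid table, and for 2 of 3 in the Western diet table (r from -0.67 to 0.76), against 2 of 24 pairs with other numbers there. With the replicate block 1 gene was higher with fatty acid and TAK242 against LPS, 0 were higher with LPS by label in the Western diet, and the other counts moved by less than 1.5 times. The block ended the calls of Psap with LPS (adjusted p = 0.0635 by limma), of Atp6v0d2 (0.0581) and Atp6v0c (0.0601) with fatty acid before LPS, of Lamp2 (0.0618) and Asah1 (0.0566) with fatty acid and TAK242 against LPS, and of Gaa (0.243) and Psap (0.262) by LPS label in the Western diet. Limits of this reading are that depth is unknown and that groups hold 3 libraries whose source animals are not given. Untreated libraries of the fatty acid table also differ from its other libraries in median-ratio size factor, though their sums lie within the same range.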

Other observations

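The untreated chow cells of the 2 tables carry the same labels, yet most of the 29 lysosomal genes had higher deposited values in the fatty acid table. All 3 of its untreated libraries lay above all 3 of the Western diet table for 25 of the 29 genes, 3 overlapped (Gaa, Tfeb and Man2b1) and Tfe3 lay below. Over the 10019 genes kept in both, 24.4% lay above and 27.3% below in this way. The median ratio of the means was 1.83 for the 29 genes and 0.992 for all genes kept in both tables. For Atp6v0d2 the ratio was 41.9, the mean being 20.7 against 0.493, while Lipa had a ratio of 2.01, Gla 3.95 and Psap 3.68. A normalization common to both tables is not known, so these ratios are a description and the batch and the table cannot be told apart. The fall of Atp6v0d2 with LPS in the fatty acid table starts from this high level, since in the Western diet table the gene was below 1 in all 3 untreated chow libraries.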
